A study of Mus musculus with 57 samples.

Results

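The insulin signalling genes described here are 10 transcripts picked by gene symbol: the insulin receptor (Insr), the docking proteins Irs1 and Irs2, the regulatory and catalytic subunits of phosphatidylinositol 3-kinase Pik3r1 and Pik3ca, the kinases Akt1 and Akt2, the transcription factor Foxo1, the glucose transport regulator Tbc1d4 and the phosphatase Ptpn1. All 10 of 10 were found among the 52853 genes of the count tables, and all 10 passed the low-count filter in every comparison. The study asked how the p.Arg707Trp change in mitofusin 2 (the R707W allele of Mfn2), a fusion protein of the outer mitochondrial membrane, alters mouse adipose tissue. RNA sequencing gave 1 count per gene for each of 41 tissue samples. All mice were male and stayed on the diet for 6 months. The study's methods give 5 weeks as the age at its start, whereas its figure legends give 7 weeks. KI mice were homozygous for the allele at the endogenous Mfn2 locus, hence in every cell type, and WT mice carried the unedited gene. The colony descended from a lone CRISPR-Cas9 founder on a C57/BL6J background, and the edited allele also carries a silent restriction site. The groups were inguinal white adipose tissue (WAT) of chow-fed WT mice (n = 7) and KI mice (n = 6), inguinal WAT of WT (n = 8) and KI (n = 8) mice on a high-fat diet (HFD) with 45% of energy as fat, and brown adipose tissue (BAT) of WT (n = 6) and KI (n = 6) mice on HFD.

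Insulin binding activates the receptor tyrosine kinase, which phosphorylates Irs1 and Irs2. These recruit phosphatidylinositol 3-kinase, whose lipid product brings Akt to the membrane. In adipocytes Akt2 is the isoform best known for glucose transport: it phosphorylates Tbc1d4, which then lets vesicles carrying the transporter Slc2a4 (GLUT4) reach the cell surface, while Akt also shuts Foxo1 out of the nucleus and Ptpn1 dephosphorylates the receptor. These steps run through phosphorylation, so transcript levels measure the amount of message for each component and not signalling activity.

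Counts assigned to genes ran from 8042591 to 10522554 per sample in BAT, from 8668279 to 11720458 in chow inguinal WAT and from 17572752 to 25680411 in HFD inguinal WAT, where each column is 1 mouse with 2 technical libraries. The 2 diets and the 2 tissues came as separate tables, so neither diet nor tissue can be told apart from library set. Levels are counts scaled to library size (CPM) with TMM factors over all 41 samples. Mfn2 itself is recoded and not deleted, so its count does not check the genotype labels; its mean level in inguinal WAT on HFD was 201 ± 25.8 CPM in KI and 160 ± 20.7 CPM in WT (SD, n = 8 each; log2 fold change 0.34, adjusted p = 0.0114, edgeR). The sum of 5 brown adipocyte markers was 8325 to 13986 CPM in BAT and 6.90 to 477 CPM in inguinal WAT, and the sum of 6 adipocyte markers was 17847 CPM or more in every sample. Some samples held more transcripts of other cell types, from a source that was not tested. The summed lymphocyte markers reached 541 CPM in a KI mouse and 385 CPM in a WT mouse on HFD, and the summed skeletal muscle markers reached 24607 CPM in a chow KI mouse and 1497 CPM in a BAT WT mouse. The 12 samples above 20 CPM for lymphocyte or 1000 CPM for muscle markers were left out in an added analysis, whose results stand beside the calls it changed. Bulk tissue cannot tell fewer cells of a type from less RNA per cell.

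The promoters of the 4 members that differed most between BAT and inguinal WAT are shown, because Irs1, Irs2 and Pik3r1 were lower and Akt2 higher in BAT (values are given with the tissue comparison). Each line is the 250 bases before a RefSeq transcription start (GRCm38.p6), 5′ to 3′ on the gene's strand, with capitals marking a GC box, an E-box, a CCAAT box or a FoxO site, searched on both strands.
Irs1, chr1:82291440-82291689, minus strand: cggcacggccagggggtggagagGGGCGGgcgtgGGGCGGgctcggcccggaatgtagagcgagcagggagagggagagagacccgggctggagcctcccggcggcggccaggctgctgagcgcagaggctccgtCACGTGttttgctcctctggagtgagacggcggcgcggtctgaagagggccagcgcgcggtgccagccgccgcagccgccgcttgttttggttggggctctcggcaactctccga
Irs2, chr8:11008930-11009179, minus strand: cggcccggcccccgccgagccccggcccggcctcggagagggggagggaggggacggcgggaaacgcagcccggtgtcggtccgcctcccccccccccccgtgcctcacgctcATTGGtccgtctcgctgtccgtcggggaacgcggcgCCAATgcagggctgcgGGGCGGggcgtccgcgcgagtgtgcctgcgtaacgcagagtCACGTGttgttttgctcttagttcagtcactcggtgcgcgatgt
Pik3r1, chr13:101768218-101768467, minus strand: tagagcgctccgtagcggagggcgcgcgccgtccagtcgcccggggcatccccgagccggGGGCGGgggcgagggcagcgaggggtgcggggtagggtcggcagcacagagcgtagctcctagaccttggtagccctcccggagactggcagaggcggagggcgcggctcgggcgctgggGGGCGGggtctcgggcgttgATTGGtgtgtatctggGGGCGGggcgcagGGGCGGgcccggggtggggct
Akt2, chr7:27591302-27591551, plus strand: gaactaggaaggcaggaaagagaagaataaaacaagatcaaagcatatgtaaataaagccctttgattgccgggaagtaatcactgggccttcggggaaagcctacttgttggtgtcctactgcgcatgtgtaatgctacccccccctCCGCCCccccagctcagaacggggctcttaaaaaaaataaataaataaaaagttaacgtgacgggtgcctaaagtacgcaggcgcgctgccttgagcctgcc
An entry was available for 9 of the 10 members. Irs1 and Irs2 each held 1 E-box (CACGTG), beginning 115 bases before the start in Irs1 and 44 bases before it in Irs2, a motif present in 6.02% of all 32851 promoter windows. The GC box (GGGCGG), present in 32.7% of all windows, occurred in all 4 sequences. It also occurred in at least 1 window of every other member with an entry, so it does not set these 4 apart. The CCAAT box (33.8% of windows) occurred in Irs2 and Pik3r1, and the FoxO site (GTAAACA, 3.17% of windows) in none of the 4. These are matches of letters and were not tested as binding sites. The Pik3r1 and Akt2 genes have further RefSeq starts, whose windows held no GC box, and which start was used was not measured.

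Akt transcripts were the most abundant of the 10 in every group when levels were set per kilobase of transcript (RPKM). Akt2 had mean levels from 35.6 ± 5.12 RPKM in HFD inguinal WAT of WT mice (SD, n = 8) to 89.5 ± 12.9 RPKM in BAT of KI mice (SD, n = 6). Akt1 followed with means of 31.5 to 42.3 RPKM. In BAT and in chow inguinal WAT of KI mice the ranges of Akt2 and Akt1 did not meet, whereas in HFD inguinal WAT of both genotypes and in chow inguinal WAT of WT mice they overlapped. The other members lay between 1.45 and 12.7 RPKM on average, and nearly all neighbours in that order overlapped between mice. Irs1 was lowest in BAT, at 1.66 ± 0.721 RPKM in WT and 1.45 ± 0.333 RPKM in KI mice (SD, n = 6 each), and in KI mice its range did not meet that of the next gene, Pik3r1. Pik3ca varied least, with mean levels of 5.90 to 6.95 RPKM across the 6 groups.

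**Figure D1:**
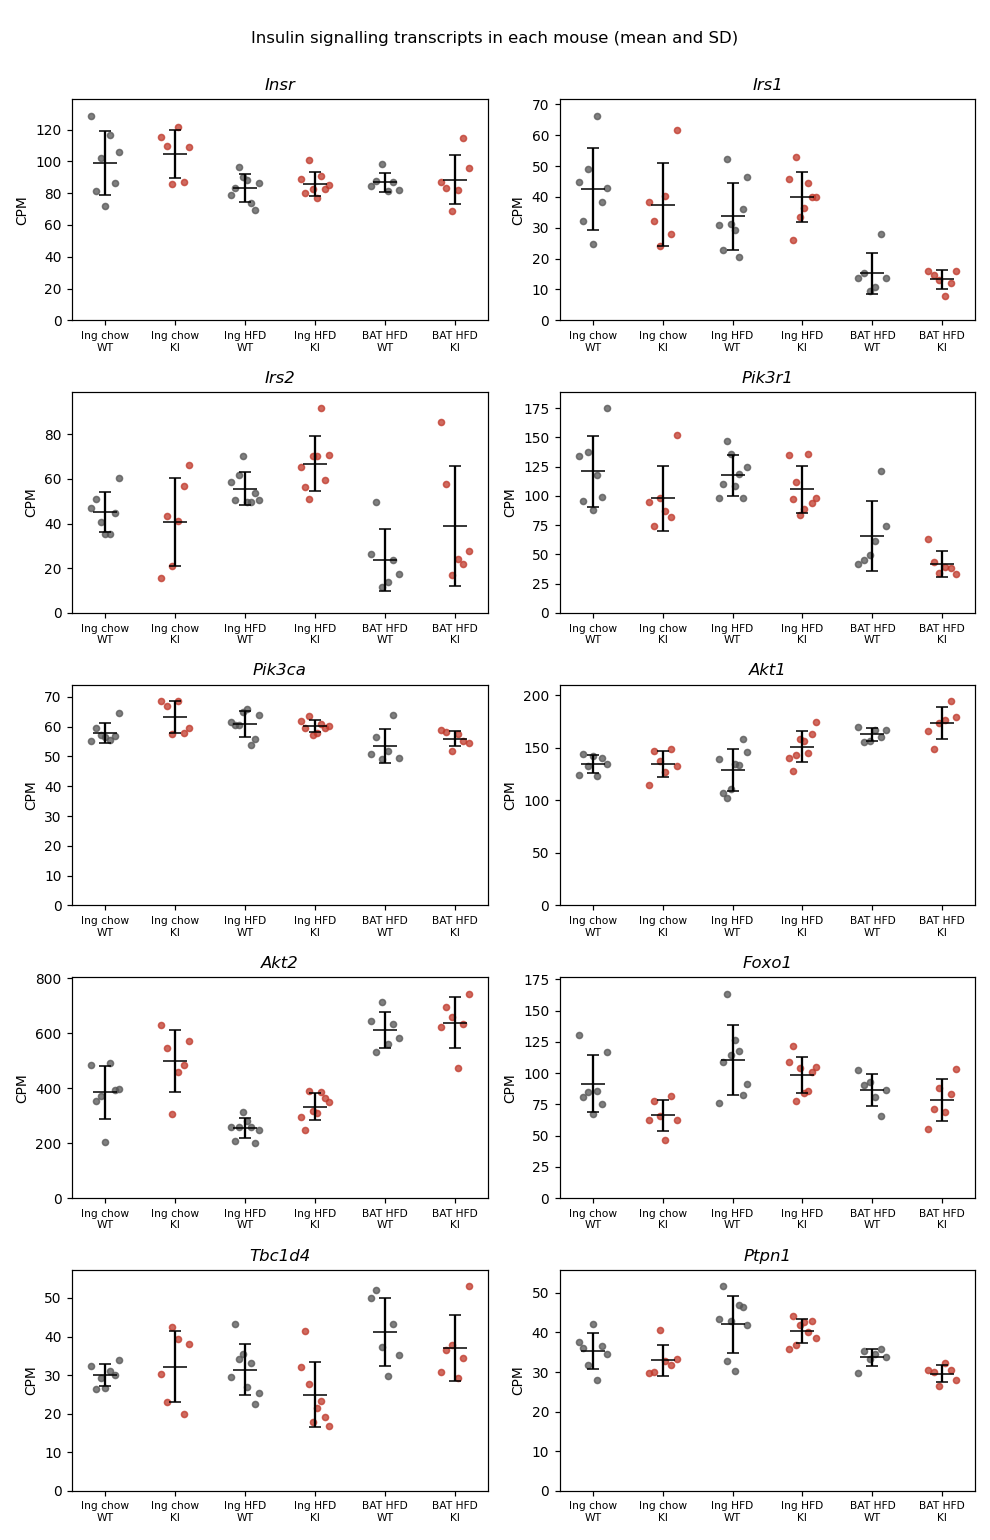
Levels of the 10 insulin signalling transcripts in each mouse, in CPM (linear axis from 0), with WT mice in grey and KI mice in red in 6 groups (Ing, inguinal WAT); black bars give the mean and SD. Akt2 in BAT sits between 473 and 745 CPM, above all HFD inguinal WAT mice, which lie between 199.8 and 389 CPM.

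The comparison of KI with WT mice asks whether the Mfn2 allele changes the message for the insulin pathway in each depot and diet. In inguinal WAT on HFD, 1 of 10 members was called at an adjusted p below 0.01, against 11.5% of all genes tested (edgeR quasi-likelihood test, Benjamini-Hochberg adjustment over 16471 genes). That member was Akt2, which was higher in KI mice, a direction in which 6.21% of all genes were called. In chow inguinal WAT 0 of 10 were called, against 3.23% of all genes, and in BAT 0 of 10, against 1.83%. At an unadjusted p below 0.05 the counts were 3, 1 and 2 members in the same order, against 32.9%, 24.3% and 24.4% of all genes, and DESeq2 called 1, 0 and 0 members. In none of the 3 comparisons did KI and WT mice separate completely for any member, as they did for 4.52%, 4.22% and 3.68% of all genes. The median log2 fold change of the members in inguinal WAT on HFD was 0.02, with 5 members above and 5 below 0, beside a median of 0.01 over all genes.

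Akt2 (GRCm38 chr7:27591552-27640826, plus strand) ranged in inguinal WAT on HFD from 199.8 to 313 CPM with a median of 260.0 in WT mice, and from 247 to 389 CPM with a median of 333 in KI mice. The groups overlapped, with 5 of 8 KI mice above every WT mouse. The log2 fold change was 0.40 (SE 0.10, 95% interval 0.18 to 0.61, adjusted p = 0.00984, edgeR). The call sat at the threshold: it was lost without the libraries rich in lymphocyte or muscle transcripts (0.41, adjusted p = 0.0209) and in 13 of the 16 fits that left out 1 mouse, where the fold change stayed between 0.35 and 0.44 and the adjusted p between 0.00253 and 0.0318. With a replicate block the adjusted p was 0.0133. Other transcripts moved in the same comparison. The brown adipocyte markers summed to 14.6 to 41.2 CPM in KI and 6.90 to 15.5 CPM in WT mice. Only 2 of these 5 passed the low-count filter, Cidea (log2 fold change 1.55, called) and Ppargc1a (0.56, not called). The 5 fibroblast and preadipocyte markers summed to 1377 to 2550 CPM in KI and 1708 to 2965 CPM in WT. The adipocyte markers summed to 23160 to 32851 CPM in KI and 23312 to 37352 CPM in WT. Of these 6, 3 were above and 3 below 0, with Lipe called higher (0.54) and Adipoq lower (-0.85). The part of these markers in the Akt2 difference was not tested.

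In chow-fed mice Akt2 ranged from 206 to 492.7 CPM in WT (median 395) and from 305 to 629 CPM in KI (median 517) inguinal WAT. The fold change was of similar size but did not pass the test (log2 fold change 0.37, 95% interval -0.04 to 0.77, adjusted p = 0.255). On chow the brown adipocyte markers summed to 66.8 to 477 CPM in KI and 11.4 to 53.9 CPM in WT mice. Of the 2 tested, Cidea was called (3.02) and Ppargc1a was not (-0.70). All 6 macrophage and all 5 endothelial markers were lower in KI mice, none called (medians -0.58 and -0.32). The part of these markers in the chow differences was not tested. In BAT the genotypes covered the same range of Akt2, 531 to 715 CPM in WT and 473 to 745 CPM in KI mice (log2 fold change 0.02, 95% interval -0.23 to 0.27, adjusted p = 0.934). The difference between the KI effects in BAT and in inguinal WAT on HFD was -0.34 on the log2 scale (95% interval -0.66 to -0.02) and did not pass (adjusted p = 0.202), nor did that between diets (0.05, 95% interval -0.40 to 0.49, adjusted p = 0.944). Over all members, 0 of 10 were called by edgeR in the tissue interaction, against 2.82% of all genes, and 0 of 10 in the diet interaction, against 0.632%. At an unadjusted p below 0.05 the tissue interaction held 1 member, Akt2 (22.0% of all genes), and the diet interaction 0 (16.8% of all genes), and DESeq2 called 0 in both.

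Among the receptor and its docking proteins, Insr differed least. Its level in inguinal WAT on HFD was 69.1 to 96.3 CPM in WT and 77.1 to 101 CPM in KI mice, and the log2 fold change was 0.05 (95% interval -0.10 to 0.21). In chow inguinal WAT it was 0.07 (95% interval -0.21 to 0.36) and in BAT -0.01 (95% interval -0.25 to 0.22). Irs2 in inguinal WAT on HFD ranged from 49.5 to 70.2 CPM in WT (median 52.1) and from 50.8 to 91.6 CPM in KI mice (median 67.6). Of the KI mice 3 of 8 lay above all WT mice, and the log2 fold change of 0.27 (SE 0.11) had an unadjusted p of 0.0183 and an adjusted p of 0.0741. In BAT Irs2 varied widely, from 11.7 to 49.7 CPM in WT and from 17.0 to 85.3 CPM in KI mice, so that the fold change of 0.66 had an interval from -0.38 to 1.70 (adjusted p = 0.425) and moved between 0.25 and 1.05 when 1 mouse was left out. On chow the Irs2 fold change in inguinal WAT was -0.16 (95% interval -0.76 to 0.45, adjusted p = 0.783). Irs1 gave 0.25, -0.20 and -0.24 in inguinal WAT on HFD, inguinal WAT on chow and BAT, and all 3 intervals included 0.

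The Irs1 count rests in part on a shared stretch. The gene Gm9747 (chr1:82233112-82235933, plus strand) lies on the opposite strand inside the last part of Irs1 (chr1:82233101-82291416, minus strand) and covers 2822 of its 9144 exonic bases, or 30.9%. Antisense genes also cover 7.78% of the exonic bases of Foxo1 (Gm20402) and 2.56% of those of Irs2 (9530052E02Rik). Whether strand was used in counting is not given in the sources used here, so reads from the shared stretches may have been assigned to either gene, to both or to neither. For Irs1 not all went to neither. Gm9747 lies wholly in the shared stretch, and it passed the low-count filter in every genotype comparison.

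For phosphatidylinositol 3-kinase, the catalytic subunit Pik3ca stayed within narrow limits, with fold changes of -0.01 in HFD inguinal WAT, 0.12 in chow inguinal WAT and 0.02 in BAT. The regulatory subunit Pik3r1, which binds the phosphorylated Irs proteins, was lower in KI mice on average in all 3 comparisons without passing the test in any. In BAT it ranged from 41.8 to 121 CPM in WT mice (median 55.4) and from 32.9 to 63.5 CPM in KI mice (median 38.7), and 4 of 6 KI mice lay below every WT mouse. The BAT fold change was -0.68 (SE 0.25, 95% interval -1.20 to -0.15, unadjusted p = 0.0154, adjusted p = 0.111). It moved between -0.84 and -0.41 when 1 mouse was left out, and was -0.41 without WT mouse 5, the highest of its group at 121 CPM. All 5 fibroblast and preadipocyte markers were also lower in KI mice in BAT, each at an unadjusted p below 0.05 and none called (median log2 fold change -0.80), and their part in the Pik3r1 difference was not tested. It was -0.31 in chow inguinal WAT (adjusted p = 0.312) and -0.15 in inguinal WAT on HFD (adjusted p = 0.38).

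Akt1, the isoform found in most tissues, ranged in inguinal WAT on HFD from 102 to 159 CPM in WT and from 128 to 174 CPM in KI mice, with a log2 fold change of 0.23 (SE 0.09, unadjusted p = 0.0187, adjusted p = 0.0753). In chow inguinal WAT and in BAT its fold changes were -0.01 (95% interval -0.17 to 0.16) and 0.05 (95% interval -0.14 to 0.24).

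Of the proteins downstream of Akt and the receptor's phosphatase, Foxo1, which turns on genes of fasting when insulin is low, had its largest genotype difference in chow inguinal WAT. It ranged there from 67.7 to 130.2 CPM in WT mice (median 85.3) and from 46.7 to 81.6 CPM in KI mice (median 64.2). The groups overlapped, with 4 of 6 KI mice below every WT mouse, and the fold change of -0.48 (SE 0.16) had an unadjusted p of 0.00958 and an adjusted p of 0.0789. The part of the chow marker differences given with Akt2 was not tested for Foxo1 either. On HFD the Foxo1 fold change was -0.15 in inguinal WAT and -0.19 in BAT, with intervals that included 0. Tbc1d4 gave -0.32 in HFD inguinal WAT, 0.09 in chow inguinal WAT and -0.21 in BAT, none past the test. Ptpn1 in BAT ranged from 29.7 to 35.8 CPM in WT and from 26.4 to 32.3 CPM in KI mice (log2 fold change -0.23, SE 0.10, unadjusted p = 0.0291, adjusted p = 0.152).

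**Figure D2:**
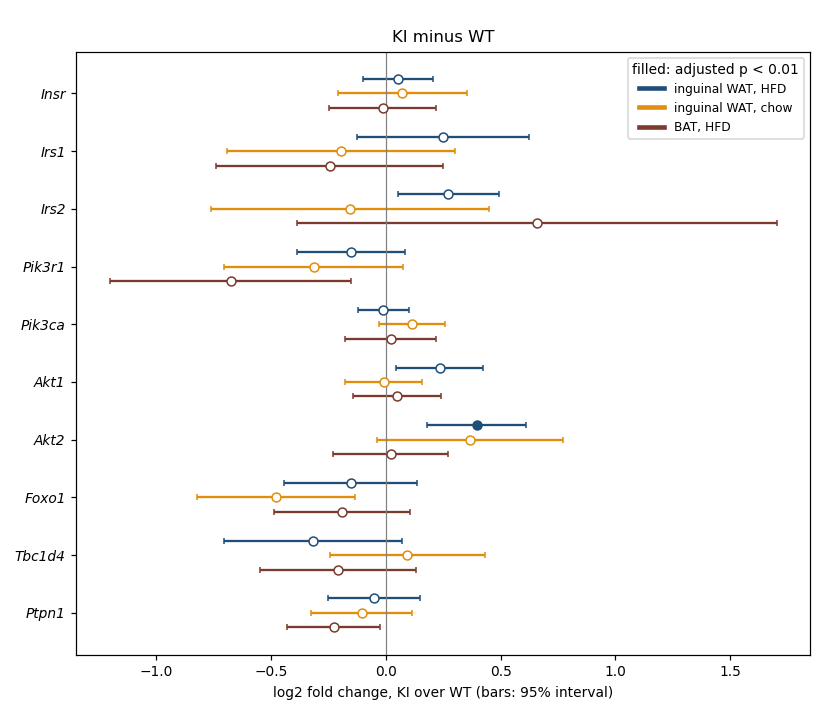
Log2 fold change of KI over WT for the 10 members, with points for inguinal WAT on HFD (blue), inguinal WAT on chow (orange) and BAT on HFD (brown); bars are 95% intervals and filled points passed an adjusted p below 0.01. Of the 30 points only Akt2 in inguinal WAT on HFD (0.40) is filled.

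The wider pathway was described with 70 further genes in 7 lists, of which 67 were tested in each genotype comparison. In inguinal WAT on HFD 11 were called (16.4%), of which KI mice had 7 higher and 4 lower, beside 11.5% of all genes. In chow inguinal WAT 2 were called (2.99%, beside 3.23% of all genes) and in BAT 1 (1.49%, beside 1.83%). The median log2 fold changes of the 67 were 0.04, 0.09 and -0.02, beside 0.01, -0.01 and -0.01 over all genes.

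Trib3, a pseudokinase that can bind Akt and is also a target of the integrated stress response, was called in all 3 comparisons. In inguinal WAT on HFD it ranged from 8.46 to 19.0 CPM in WT and from 63.7 to 178 CPM in KI mice. In chow inguinal WAT it ranged from 7.63 to 15.5 CPM in WT and from 60.0 to 231 CPM in KI mice. In BAT the ranges met, 12.9 to 31.4 CPM in WT and 29.2 to 406 CPM in KI mice. The log2 fold changes were 3.18 (SE 0.22, adjusted p = 4.72e-08), 3.65 (SE 0.27, adjusted p = 7.67e-06) and 3.54 (SE 0.51, adjusted p = 0.00245). Trib3 was the only inhibitor called in BAT among the 12 inhibitors tested.

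Of the other inhibitors in inguinal WAT, the receptor-type phosphatase Ptprf was lower in KI mice on HFD (8.10 to 17.5 against 13.7 to 31.1 CPM, log2 fold change -0.77, adjusted p = 0.00575) and on chow (3.18 to 8.59 against 12.2 to 33.1 CPM, -1.48, adjusted p = 0.00438). The adaptor Grb10, which binds and restrains the insulin receptor, was higher on HFD (62.0 to 87.0 CPM in KI against 43.8 to 64.5 CPM in WT, 0.44, adjusted p = 0.000648). Its KI effect differed between tissues (interaction -0.68, adjusted p = 0.00402), as the BAT fold change was -0.27 (adjusted p = 0.199).

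The remaining calls in inguinal WAT on HFD fell in 4 lists. Among the 9 adaptors and substrates tested, Irs3, a docking protein of mouse adipocytes, rose from a mean of 47.2 to 69.3 CPM (log2 fold change 0.56, adjusted p = 0.00295). Among the genes for phosphatidylinositol 3-kinase subunits, PDK1 and mTORC2, the catalytic subunit Pik3cb fell from 58.8 ± 11.9 to 35.1 ± 5.31 CPM (SD, n = 8 each; -0.74, adjusted p = 0.000126), and every KI mouse (27.2 to 43.0 CPM) lay below every WT mouse (48.8 to 85.1 CPM). Among the 13 Akt substrates and insulin-regulated effectors, the insulin-responsive glucose transporter Slc2a4 rose (log2 fold change 0.50, adjusted p = 0.00192), as did Gsk3a, a kinase that Akt inhibits (0.26, adjusted p = 0.00192).

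The 11 FoxO target genes did not move in 1 direction in inguinal WAT on HFD. Pck1, the cytosolic enzyme of glyceroneogenesis, rose (530.0 to 1183 CPM in WT against 1556 to 3674 CPM in KI mice; log2 fold change 1.40, adjusted p = 1.56e-05), as did the triglyceride lipase Pnpla2 (0.46, adjusted p = 0.0054). Sesn3, a sestrin, fell (-0.47, adjusted p = 0.00174), as did the cell cycle gene Ccng2 (-0.58, adjusted p = 0.00134). The list's median was -0.14, with 8 of 11 genes below 0. The KI effect on Pck1 differed between tissues (interaction -1.38, adjusted p = 0.00142), and its BAT fold change was -0.02. None of the 9 genes of the Ras-MAPK branch and none of the 3 receptors and growth factors tested was called by edgeR between genotypes. In the 3 comparisons 2, 2 and 1 genes of the branch and 0, 2 and 1 of the receptor list had an unadjusted p below 0.05. The shares of all genes below it were 32.9%, 24.3% and 24.4%. The receptor-list gene in BAT was Igf1, close to the threshold (log2 fold change -0.84, adjusted p = 0.0128, edgeR). Every KI mouse lay below every WT mouse for Igf1, and 3.68% of all genes separated in either direction. Other wider genes lay near the threshold or separated without a call. Pdk4 in chow inguinal WAT (log2 fold change 1.21, adjusted p = 0.0101, edgeR) and Shc1 in inguinal WAT on HFD (0.21, adjusted p = 0.0104) lay nearer to it than Igf1. Mapkap1 in BAT (0.41) and Srebf1 (0.88), Hk2 (0.67) and Ccng2 (-0.52) in chow inguinal WAT also separated completely. On chow 4.22% of all genes did so.

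**Figure D3:**
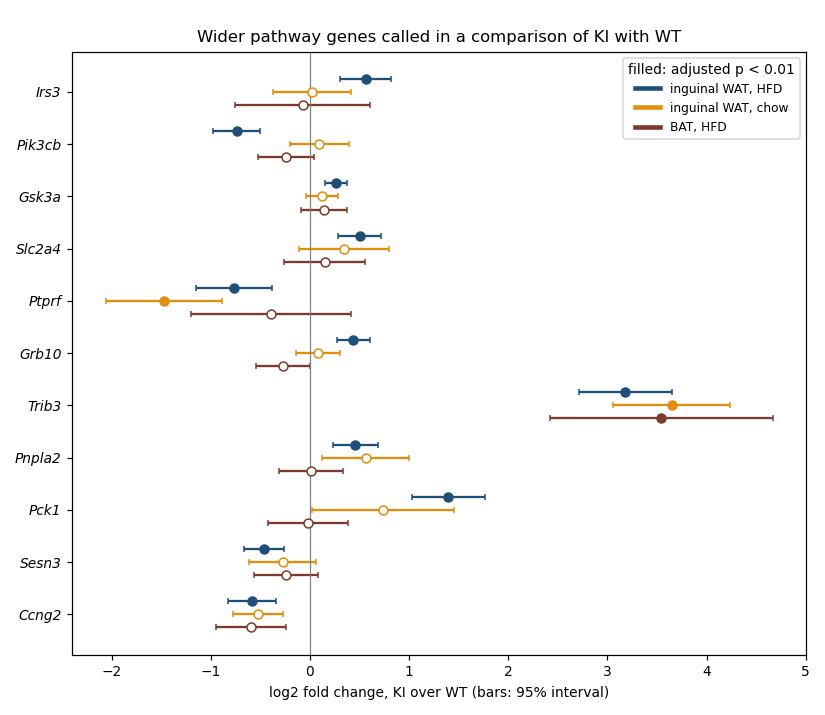
Log2 fold change of KI over WT for the wider pathway genes called in at least 1 genotype comparison, coloured as inguinal WAT on HFD (blue), inguinal WAT on chow (orange) and BAT on HFD (brown); bars are 95% intervals and filled points passed an adjusted p below 0.01. Trib3 lies between 3.18 and 3.65 in all 3 comparisons, and most other filled points are those of inguinal WAT on HFD.

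The comparison of BAT with inguinal WAT on HFD asks how the members are expressed in the 2 depots. In WT mice 6 of 10 members were called, beside 55.9% of all genes, with 4 lower in BAT (29.0% of all genes) and 2 higher (26.9%). In KI mice 4 of 10 were called, beside 59.1%, with 3 lower (30.6%) and 1 higher (28.4%). At an adjusted p below 0.05 the counts were 8 and 7 members, beside 66.6% and 69.1% of all genes. At this background a share of this size is not a result about the members. These values assume that most genes do not differ between depots: without TMM scaling the median of all genes moved by -0.51 in WT and -0.62 in KI mice on the log2 scale, and Insr and Akt1 turned from higher to lower in BAT. Which mice gave both tissues is not given in the sources used here. The tissue tests, and those of the ratios below, took the samples as independent.

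Akt2 was 531 to 715 CPM in BAT against 199.8 to 313 CPM in inguinal WAT of WT mice, and 473 to 745 against 247 to 389 CPM in KI mice. No BAT mouse overlapped an inguinal WAT mouse in either genotype. The log2 fold changes were 1.27 (SE 0.11, adjusted p = 2.35e-11) and 0.93 (SE 0.11, adjusted p = 1.29e-08). Separation of the groups without overlap held for 39.0% of all genes tested in WT and 40.1% in KI mice.

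The docking proteins and the regulatory subunit ran the other way. Markers of other cell types were lower in BAT too: all 6 macrophage markers were called lower in both genotypes (median log2 fold change -2.004 in WT and -1.90 in KI mice), as were all 5 fibroblast and preadipocyte markers (-1.72 and -1.91), and their part in these differences was not tested. Irs1 was 9.62 to 28.0 CPM in BAT and 20.5 to 52.2 CPM in inguinal WAT of WT mice, and 7.96 to 16.01 against 26.1 to 52.9 CPM in KI mice. Only the KI groups were free of overlap, and the log2 fold changes were -1.14 (adjusted p = 5.84e-05) and -1.60 (adjusted p = 4.7e-07). Irs2 was lower in BAT of WT mice (-1.21, SE 0.31, adjusted p = 0.00131), and in KI mice the fold change of -0.79 did not pass (adjusted p = 0.0229). Pik3r1 gave -0.84 in WT (adjusted p = 0.000258) and -1.34 in KI mice (adjusted p = 4.62e-07), where the highest BAT mouse had 63.5 CPM and the lowest inguinal WAT mouse 83.4 CPM. The WT call was lost without the libraries rich in lymphocyte or muscle transcripts (-0.64, adjusted p = 0.014).

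Among the remaining members, Ptpn1 was lower in BAT in WT (-0.32, adjusted p = 0.00371) and KI mice (-0.46, adjusted p = 8.36e-05). The WT call on Ptpn1 was lost without those libraries (-0.22, adjusted p = 0.0927) and with a replicate block (-0.28, adjusted p = 0.0374). Akt1 was higher in BAT of WT mice (0.33, adjusted p = 0.00175), a call also lost without those libraries (0.29, adjusted p = 0.0286). Without TMM scaling the Akt1 value changed sign and was not called (-0.18, adjusted p = 0.108). Tbc1d4 was at the threshold in KI mice (0.55, SE 0.19, adjusted p = 0.01002) and passed it when those libraries were left out (0.75, adjusted p = 0.000365). Of BAT, 2 WT and 0 KI samples were left out there, both with skeletal muscle markers above 1000 CPM. Of HFD inguinal WAT, 2 WT and 3 KI samples were left out. Foxo1, Pik3ca and Insr did not pass in either genotype with TMM scaling in edgeR. Pik3ca in WT mice passed with DESeq2 (-0.20, adjusted p = 0.00216) and RLE factors (-0.21, adjusted p = 0.00615), and all 3 genes were called lower in BAT of both genotypes without scaling. In KI mice DESeq2 also called Irs2 (-0.81, adjusted p = 0.00694) and Tbc1d4 (0.54, adjusted p = 0.00766). The wider pathway had 42 of 67 genes called in WT (62.7%, beside 55.9% of all genes; 22 higher, 20 lower) and 48 of 67 in KI mice (71.6%, beside 59.1%; 24 higher, 24 lower), with medians of -0.04 and 0.01 beside -0.09 and -0.12 over all genes.

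The comparison of diets within inguinal WAT asks how 6 months of HFD changed the members, as far as the 2 library sets allow. In WT mice 1 of 10 members was called, beside 28.2% of all genes, and it was lower on HFD (15.2% of all genes). In KI mice 3 of 10 were called, beside 30.6%, with 1 lower (15.4%) and 2 higher (15.2%). At an adjusted p below 0.05 the counts were 2 and 4 members, beside 40.6% and 42.6% of all genes. Akt2 was lower on HFD in both genotypes: medians were 260.0 on HFD and 395 CPM on chow in WT mice and 333 and 517 CPM in KI mice. The log2 fold changes were -0.60 (SE 0.15, adjusted p = 0.00213) and -0.55 (SE 0.16, adjusted p = 0.00527), and 6 of 7 chow WT and 5 of 6 chow KI mice lay above every HFD mouse of their genotype. The KI call was lost without TMM scaling (-0.44, adjusted p = 0.0135). Endothelial markers were higher on HFD in the same comparisons, with 3 of 5 called in each genotype (medians of the 5 were 0.34 in WT and 0.51 in KI mice). The brown adipocyte markers summed to 66.8 to 477 CPM on chow and 14.6 to 41.2 CPM on HFD in KI mice. In WT mice they summed to 11.4 to 53.9 and 6.90 to 15.5 CPM. Of these 5, 2 were above and 3 below 0 in each genotype. Cidea was called lower on HFD in both (-1.88 in WT and -3.34 in KI mice), and Elovl3 higher in WT (4.02) and lower in KI mice (-4.25). The part of these markers in the members' differences was not tested.

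In KI mice Irs2 was higher on HFD, at 50.8 to 91.6 CPM against 15.6 to 66.2 CPM on chow (log2 fold change 0.75, SE 0.21, adjusted p = 0.00549). Foxo1 was also higher there, at 78.0 to 122 against 46.7 to 81.6 CPM, with 7 of 8 HFD mice above every chow mouse (0.61, SE 0.16, adjusted p = 0.00298). In WT mice the same fold changes were 0.31 for Irs2 (adjusted p = 0.225) and 0.27 for Foxo1 (adjusted p = 0.153), and the differences between genotypes were the diet interactions, 0.44 for Irs2 (adjusted p = 0.48) and 0.33 for Foxo1 (adjusted p = 0.476). Both KI calls were lost without the libraries rich in lymphocyte or muscle transcripts, which leaves 3 of 6 chow KI mice (Irs2 0.36, adjusted p = 0.112, and Foxo1 0.44, adjusted p = 0.105). Ptpn1 gave 0.26 in WT (adjusted p = 0.033) and 0.32 in KI mice (adjusted p = 0.0106). The other 6 members did not pass in either genotype, and 20 of 68 wider pathway genes were called in WT (29.4%, beside 28.2% of all genes) and 22 of 68 in KI mice (32.4%, beside 30.6%).

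**Figure D4:**
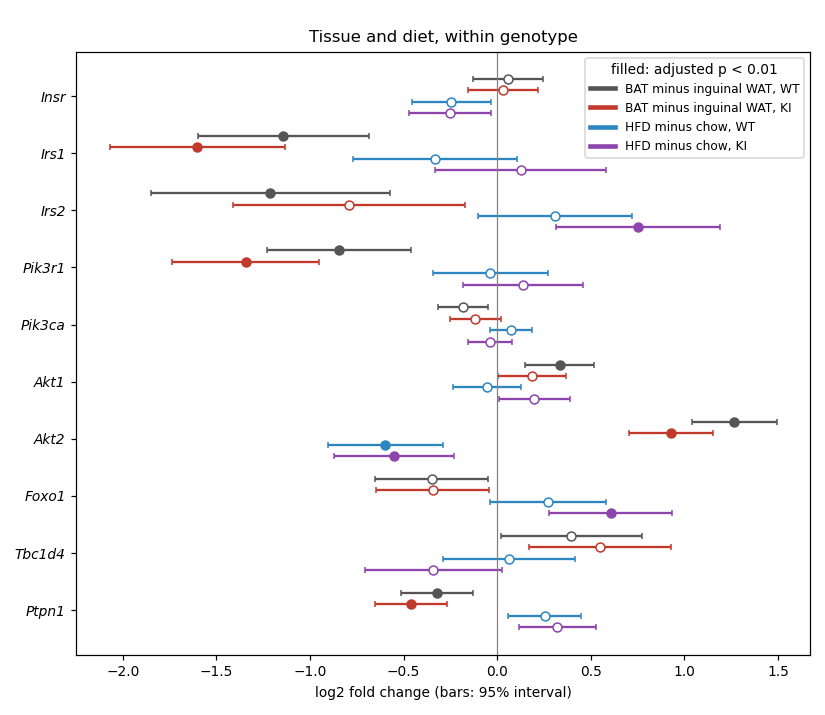
Log2 fold change of the 10 members between BAT and inguinal WAT on HFD (grey in WT, red in KI mice) and between HFD and chow in inguinal WAT (blue in WT, purple in KI mice); bars are 95% intervals and filled points passed an adjusted p below 0.01. Akt2 lies at 1.27 and 0.93 for tissue and at -0.60 and -0.55 for diet, and Irs1, Irs2 and Pik3r1 lie below 0 for tissue in both genotypes.

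Ratios between paired members of the same mouse do not depend on the scaling of libraries. The ratios were chosen after the levels were seen, and 21 two-sided exact permutation tests on log2 ratios of RPKM were run and adjusted together. The Akt2 to Akt1 ratio was 1.93 to 2.63 in BAT and 0.723 to 1.62 in HFD inguinal WAT of WT mice, without overlap. The difference was 0.92 on the log2 scale (exact permutation p = 0.000666, adjusted p = 0.00699, n = 6 and 8), the smallest that 3003 divisions of the mice can give. In KI mice it was 0.74 (exact permutation p = 0.00133, adjusted p = 0.00932, n = 6 and 8). Between HFD and chow it was -0.73 in KI mice (exact permutation p = 0.00333, adjusted p = 0.0175) and -0.50 in WT mice (exact permutation p = 0.0416, adjusted p = 0.0972).

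The Pik3r1 to Pik3ca ratio fell from inguinal WAT to BAT on HFD. It was 1.44 to 2.19 in inguinal WAT and 0.719 to 1.71 in BAT of WT mice (log2 difference -0.75, exact permutation p = 0.00466, adjusted p = 0.0196, n = 8 and 6). In KI mice it was 1.31 to 2.01 and 0.545 to 0.974, without overlap (-1.24, exact permutation p = 0.000666, adjusted p = 0.00699). Within BAT 5 of 6 KI mice lay below every WT mouse, with geometric means of 0.658 in KI and 1.03 in WT mice (-0.65, exact permutation p = 0.0195, adjusted p = 0.0615). The Irs2 to Irs1 ratio passed an adjusted p below 0.05 in none of its 7 comparisons. Its largest unadjusted difference by p was between diets in WT mice (0.66, exact permutation p = 0.0205, adjusted p = 0.0615), and its Irs1 part carries the antisense overlap given above. No ratio differed between genotypes past an adjusted p of 0.05 in any of its 3 genotype comparisons.

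**Figure D5:**
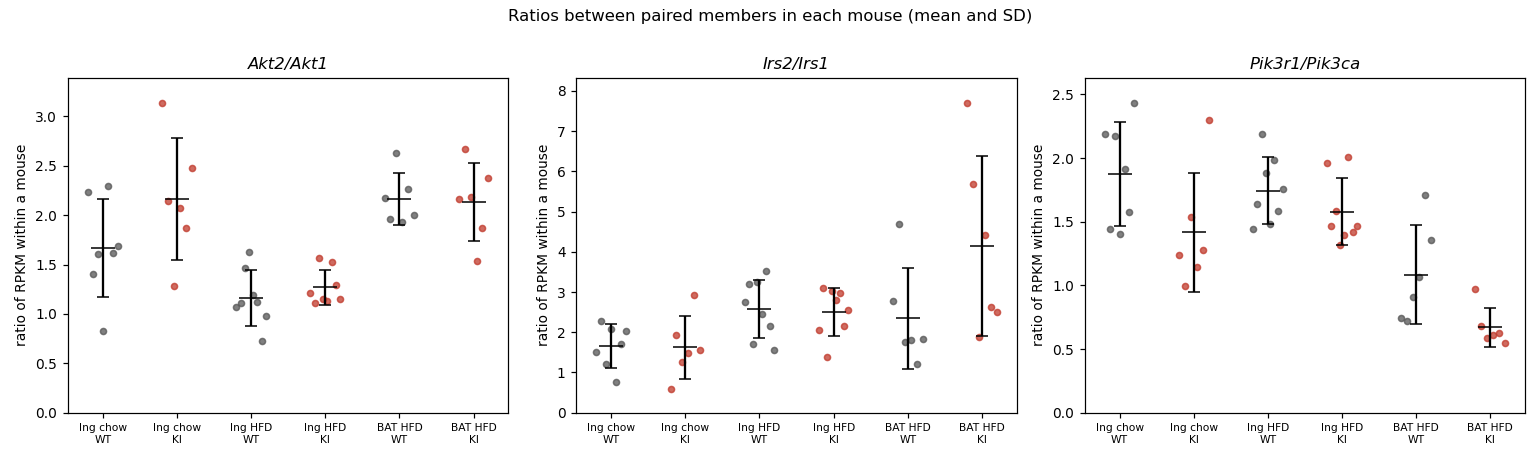
Ratios of RPKM between paired members within each mouse (linear axes from 0) in the 6 groups, WT in grey and KI in red, with mean and SD in black. The Akt2 to Akt1 ratio in BAT lies between 1.54 and 2.67 and in HFD inguinal WAT between 0.723 and 1.62, and the Pik3r1 to Pik3ca ratio of BAT KI mice lies below 1.

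Across mice within groups the members did not vary as a block. After the mean of each group was subtracted from log2 CPM, the 45 pairs of members had correlations over 41 samples from -0.60 (Akt1 with Tbc1d4) to 0.63 (Insr with Akt2), with a median of 0.07 and 25 positive. The samples share library sets and the composition of their tissue. The gene most like each member was sought among 13024 genes. For Akt2 it was Lipe, the hormone-sensitive lipase of adipocytes (r = 0.87). In HFD inguinal WAT Lipe was also higher in KI mice, at 1883 to 3182 against 1371 to 2194 CPM (log2 fold change 0.54, adjusted p = 0.00134), and its fold changes in chow inguinal WAT and BAT were 0.22 and 0.14, neither past the test.

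For Irs1 the most similar gene was Gm9747 (r = 0.93), the gene that overlaps it on the opposite strand, followed by Acvr1c (r = 0.74). For Pik3r1 it was Xbp1 (r = 0.80), for Akt1 Rab31 (r = 0.78), for Insr Nampt (r = 0.76) and for Ptpn1 Neurl3 (r = 0.74). Irs2 was nearest to Rnpc3 (r = 0.70), Tbc1d4 to Acss1 (r = 0.70), Foxo1 to Inpp1 (r = 0.69) and Pik3ca to Kif21a (r = 0.56). These are descriptions of the 41 samples.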

How the data were processed

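The deposited counts were whole-number read counts per gene, 1 column per mouse and tissue. Per the labels, the authors made TruSeq libraries and processed the reads with cutadapt, STAR on GRCm38, SAMtools and featureCounts; versions, annotation release and strand setting are not given in the sources used here. The 1884 rows without length or count were left out and duplicate symbols were kept once. Samples were grouped by the labels' tissue, diet and genotype.

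Each comparison was fitted over all genes with edgeR 4.0.16 in R 4.3.3 (TMM, filterByExpr, robust quasi-likelihood), with group as the only term. A gene was called at a Benjamini-Hochberg adjusted p below 0.01. Fold changes are log2, KI over WT. The test was checked on simulated counts. RPKM used the deposited gene length. The members and lists were chosen with earlier results of these data known, and some analyses after seeing the data. All members and Mfn2 were named, and wider genes if called between genotypes. Some uncalled wider genes that lay close to the threshold or separated completely were added. The alternatives were DESeq2 1.42.0, RLE factors, unscaled totals, no filter, a replicate block, a fit of all 6 groups, a threshold of 0.05 and leaving out mice. The main fits took the samples as independent, and whether the tissues share mice is not known. No column was left out.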

Additional observations from a re-analysis of the deposited data

Results flagged for a closer look

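A mouse stood far from the rest of its group in 6 of the 60 combinations of member and group tested by its gap to the nearest other mouse, and chance flags about 1 in 20. In BAT of WT mice, Insr was 98.2 CPM in mouse 3 (next highest 87.5) and Irs1 was 28.0 CPM in mouse 5 (next 15.3). In BAT of KI mice, Pik3r1 was 63.5 CPM in mouse 1 (next 43.7) and Tbc1d4 was 53.1 CPM in mouse 6 (next 37.7). In chow inguinal WAT of KI mice, Pik3r1 was 152 CPM in mouse 6 (next 97.9) and Ptpn1 was 40.5 CPM in mouse 3 (next 33.3), the sample with 339 CPM of lymphocyte markers. The cause was not tested.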

How the results depend on the processing

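Member calls between genotypes stayed at 0 in chow inguinal WAT and BAT under every alternative run. In inguinal WAT on HFD the 1 call became 0 with RLE factors, the fit of all 6 groups, the replicate block and without the marker-rich libraries, and 2 with unscaled totals, where Irs2 joined (0.36, adjusted p = 0.00944). Leaving out 1 mouse gave 0 to 1 members there, 0 in chow inguinal WAT and BAT, and 1460 to 2338, 288 to 497 and 134 to 313 genes in inguinal WAT on HFD, on chow and BAT. All genes called changed from 1886 (inguinal WAT on HFD) to 1242 with the 6-group fit and 3448 at a threshold of 0.05; from 472 (chow) to 1121 with DESeq2, 1088 with the 6-group fit, 102 with the replicate block and 1252 at 0.05; and from 243 (BAT) to 715 with DESeq2, 834 with the 6-group fit and 952 at 0.05. At 0.05 the members called between diets in WT mice went from 1 to 2 and between tissues in KI mice from 4 to 7. With unscaled totals, at the threshold of 0.01, the latter was 9. Without the marker-rich libraries, a choice made after seeing the data, they went from 3 to 1 (diet, KI mice) and from 6 to 3 (tissue, WT mice). With unscaled totals 4 tissue values reversed: Insr to -0.45 in WT and -0.60 in KI mice, and Akt1 to -0.18 and -0.44. The cause was not tested. Same-numbered mice did not deviate together in every pair of any comparison (correlations from -0.28 to 0.63). Between inguinal WAT and BAT on HFD, 3 of 6 WT pairs and 1 of 6 KI pairs matched best with their own number. Whether the tissues share mice cannot be decided from so few pairs. The block tests only a shared number, and no member was called with it between genotypes. Of the other fits of single members, 12 gained and 11 lost a call. The depth of BAT leaves Irs1 with 60 to 200 counts per mouse.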
